A study of Mus musculus with 24 samples.

Results

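The data concern 10 genes of fatty acid and triglyceride synthesis: Thrsp, Scd1, Scd2, Acly, Acaca, Elovl5, Elovl6, Me1, Gpam and Dgat2. They were taken as the probes whose symbol in the platform annotation is one of these names, 16 of 20205 probes and 10 of 9834 named genes. Thrsp leads the set, and the members were chosen by the log2 ratios of knockout over wild type on these same arrays. Their ratios between the 2 genotypes are therefore given as a description, with no test. Total RNA came from brown adipose tissue, testis, spleen, lung, heart and skeletal muscle (skeleton muscle in the labels) and was measured on 24 arrays with 2 colours. In every organ a pool of Nur77-/- mice was set against a pool of Nur77+/+ mice (Wildtype in the labels), with 7 animals in each pool per the design text and 6 control animals per the labelling protocol. Strain, sex and age are not given in the labels used here, and each pool is a single RNA mixture, so the 4 arrays of an organ repeat 1 comparison. The knockout pool carried Cy5 on replicates 1 and 2 and Cy3 on replicates 3 and 4 of each organ.

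Fatty acids are built in the cytosol from citrate, which ATP citrate lyase turns into acetyl-CoA. Acetyl-CoA carboxylase and fatty acid synthase then make palmitate with NADPH from malic enzyme and other sources, and elongases and desaturases lengthen and desaturate it before acyltransferases attach the acyl chains to glycerol. The transcription factors of the SREBP family, ChREBP, liver X receptors and thyroid hormone receptor are known to raise these genes together in liver and fat. Nur77, the product of Nr4a1, is an orphan nuclear receptor that binds a short DNA element, the NBRE, as a monomer.

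The proximal promoters of the members are shown because Thrsp, the gene with the clearest pattern below, can be set beside other members. RefSeq's table for GRCm38.p6 held promoters for 7 of the 10 genes, 9 promoters in all, and the 250 bases before the start were searched on both strands. Capitals mark every match to a CCAAT box (CCAAT), an E-box (CACGTG) or a nuclear receptor core motif (AGGTCA), read 5′ to 3′ on the gene's strand, so a match on the opposite strand appears as its reverse complement. The stretches are chr7:97417551-97417800 on the minus strand for Thrsp, chr9:77917115-77917364 on the plus strand for Elovl5, chr3:129532136-129532385 on the plus strand for Elovl6 and chr11:100528001-100528250 on the minus strand for Acly.
Thrsp: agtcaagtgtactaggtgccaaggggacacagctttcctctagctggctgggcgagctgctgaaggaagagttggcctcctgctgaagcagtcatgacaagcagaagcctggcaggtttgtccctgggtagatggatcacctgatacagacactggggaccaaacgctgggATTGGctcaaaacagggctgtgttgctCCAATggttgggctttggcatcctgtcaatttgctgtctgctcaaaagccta
Elovl5: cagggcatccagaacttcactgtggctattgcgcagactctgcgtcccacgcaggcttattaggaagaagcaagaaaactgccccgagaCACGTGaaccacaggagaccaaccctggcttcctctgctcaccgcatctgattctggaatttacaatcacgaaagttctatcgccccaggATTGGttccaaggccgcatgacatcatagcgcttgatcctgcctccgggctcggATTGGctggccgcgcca
Elovl6: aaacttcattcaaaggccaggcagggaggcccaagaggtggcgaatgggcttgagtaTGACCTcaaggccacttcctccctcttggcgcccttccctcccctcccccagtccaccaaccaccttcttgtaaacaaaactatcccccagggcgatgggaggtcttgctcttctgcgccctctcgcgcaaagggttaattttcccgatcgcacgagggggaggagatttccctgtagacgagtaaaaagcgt
Acly: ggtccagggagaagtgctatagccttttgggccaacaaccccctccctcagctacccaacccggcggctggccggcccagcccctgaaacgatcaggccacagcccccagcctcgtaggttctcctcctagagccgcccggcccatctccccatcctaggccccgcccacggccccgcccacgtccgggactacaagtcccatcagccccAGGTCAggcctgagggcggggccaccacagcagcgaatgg
The Thrsp promoter held 2 CCAAT boxes, from 79 to 75 and from 52 to 48 bases before the start, on opposite strands. CCAAT was found in 33.8% of all 32851 promoters of the table. Me1 and Gpam, each with 2 promoters in the table, held 1 CCAAT box in 1 of them. Elovl5 held 2 CCAAT boxes and an E-box, which 6.02% of promoters hold, and Elovl6, Acly and the other Gpam promoter each held 1 core motif, found in 14% of promoters. The NBRE itself (AAAGGTCA, which contains the core motif and is in 1.34% of promoters), a sterol regulatory element (TCACNCCAC, 1.05%) and a TATA box (TATAAA, 12.4%) were not matched in the windows of any of the 7 genes. Scd1 and Scd2 lie close together on chromosome 19, with 1 protein-coding gene between their starts, while 20 protein-coding genes lie between Thrsp and Dgat2 on chromosome 7.

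Every value is a log2 ratio of knockout over wild type, so a negative value is a lower level in the knockout pool, and no level in either genotype is given. The direction is not stated beside the values and is taken as likely. Its basis is that Nr4a1 was below 0 on 21 of the 22 arrays that measured it, with both dye orientations, although where its probe lies in the targeted gene is not known here. In spleen the medians of a list of exocrine pancreas genes were -4.70 and -5.38 with the knockout pool in Cy5 and -3.96 and -4.65 with it in Cy3. Values beyond 12 in size were all positive with the knockout pool in Cy5 and all negative with it in Cy3. The arrays held 13396 to 19455 values, their medians lay between -0.78 and 0.67, and the organs labelled could not be checked against marker levels because only ratios were used here. Across probes, the median Spearman rho between arrays of 1 organ was 0.12 where the dyes were placed alike and -0.05 where they were swapped. Between arrays of different organs the medians were 0.06 and -0.04, so swapped arrays of 1 organ were no more alike than those of different organs. The wild-type channel of heart replicate 2 is labelled skeleton muscle. The 16 member probes gave 324 of 384 possible values (84.4%, against 81% over all probes), and 4 of them lie beyond 12 in size and were treated as missing: 1 of Gpam, 1 of Scd2 and 2 of Elovl6. For 55 of 60 combinations of member and organ, 3 or more arrays covering each dye placement were measured, and an organ estimate (limma fit over all 24 arrays with a dye term, ± SE) was made for these.

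Thrsp encodes a small acidic nuclear protein that responds to thyroid hormone and carbohydrate and promotes lipogenesis in liver and fat. It was lower in the knockout pool in lung and spleen and close to 0 in the other organs. In lung its ratios were -0.98 and -1.30 with the knockout pool in Cy5 and -1.32 and -1.51 with it in Cy3. All 4 lie close together, with both dyes, and their SD of 0.22 compares with a median of 0.80 over all rows of that organ. Thrsp was chosen from these same ratios, so this closeness describes the choice. The lung estimate was -1.28 ± 0.22, a level 2.42-fold lower. In spleen the ratios were -1.67 with Cy5 and -2.07 and -0.86 with Cy3, replicate 2 having no value. All 3 are below 0, with a wider spread than in lung, and the estimate was -1.52 ± 0.26, 2.87-fold lower. With spleen fitted alone the estimate was -1.57 ± 0.60. On single arrays, 9.9% to 15.5% of all rows had a lower ratio than Thrsp in these organs, whereas 4.25% of rows in lung and 4.87% in spleen had a lower organ estimate.

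**Figure D1:**
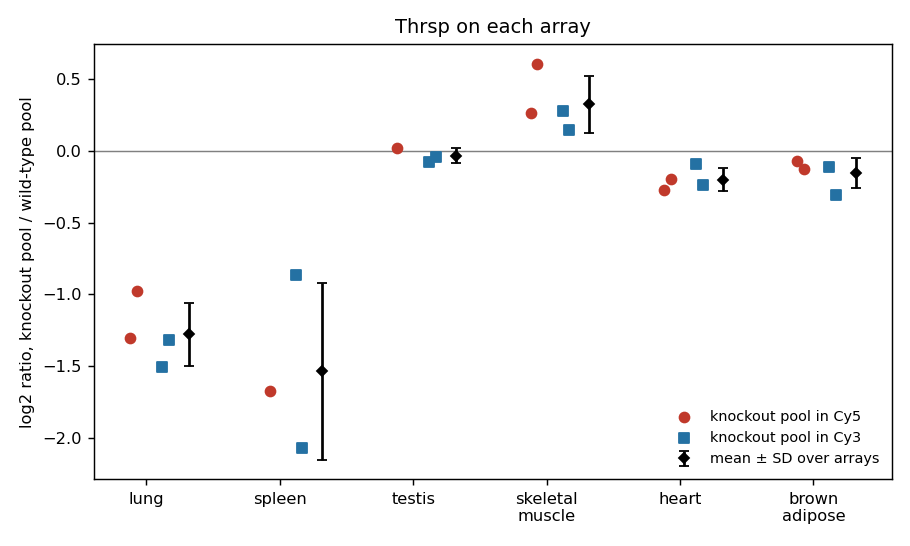
Log2 ratio of knockout over wild-type pool for Thrsp (y axis) on each array of 6 organs (x axis), with red circles for arrays with the knockout pool in Cy5, blue squares for Cy3, and black diamonds with bars for the mean ± SD over the arrays. The lung values sit between -1.51 and -0.98 and the spleen values between -2.07 and -0.86, while all values of the other organs lie between -0.31 and 0.60.

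In heart the Thrsp ratios were -0.20 and -0.28 with Cy5 and -0.24 and -0.09 with Cy3, and in brown adipose tissue they were -0.13 and -0.07 with Cy5 and -0.31 and -0.11 with Cy3. Every one of these 8 values is below 0 but small. The SE of each organ's estimate, 0.22, is larger than the estimates of -0.20 and -0.16. That SE rests on a spread shared over all organs. The SD over the arrays of the organ itself was 0.08 in heart and 0.11 in brown adipose tissue. In testis the values were 0.02 with Cy5 and -0.05 and -0.08 with Cy3. Skeletal muscle was the one organ above 0 on every array, at 0.60 and 0.27 with Cy5 and 0.14 and 0.27 with Cy3, with an estimate of 0.32 ± 0.22. Relative to the array's own median, muscle replicate 4 stood at -0.40 and the other muscle arrays at 1.04, 1.04 and 0.15, so the sign on that array depends on the centring. From the lowest mean to the highest, the organs ran spleen, lung, heart, brown adipose tissue, testis and skeletal muscle. The ranges of spleen and lung overlap, as do those of heart and brown adipose tissue and of brown adipose tissue and testis, whereas lung and heart, and testis and skeletal muscle, do not overlap. In these bulk pools, fewer cells of a type that expresses Thrsp and less Thrsp RNA per cell cannot be told apart.

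Scd2, a stearoyl-CoA desaturase that introduces the double bond of monounsaturated fatty acids in many tissues outside liver, was lower in the knockout pool in spleen. Averaged over its 2 probes, the spleen ratios were -2.12 and -3.24 with Cy5 and -1.31 and -1.29 with Cy3. All 4 are below 0, lower with Cy5 than with Cy3, and the estimate was -1.99 ± 0.35, 3.97-fold lower. The first probe gave -3.51 and -3.23 with Cy5 and -0.88 and -1.32 with Cy3. The second gave -0.73 with Cy5 and -1.74 and -1.26 with Cy3, so its order between the dyes was opposite, and replicate 2 rests on the first probe alone. Both probes thus lay below 0 on each of their 7 values in spleen.

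Elsewhere the probes of Scd2 parted. The first probe stayed between -0.48 and 0.48 in the other 5 organs, with means of -0.12 in lung, 0.01 in testis, -0.20 in skeletal muscle, -0.01 in heart and -0.29 in brown adipose tissue. The second ranged from -3.40 in heart to 2.67 in testis. Scd1, the main desaturase of liver and fat, had its lowest organ estimates in skeletal muscle (-0.50 ± 0.28), brown adipose tissue (-0.43 ± 0.28) and spleen (-0.39 ± 0.28), below 0 on all 4 arrays of each. Muscle replicate 4 stood apart at -1.54, and without replicate 4 of the organs these estimates were -0.15, -0.28 and -0.26. In spleen the Scd1 ratios were -0.27 and -0.41 with Cy5 and -0.10 and -0.77 with Cy3, all of them nearer to 0 than any ratio of the first Scd2 probe. Transcripts of Scd1 and Scd2 are close in sequence, and how far each probe binds the other's transcript was not tested.

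**Figure D2:**
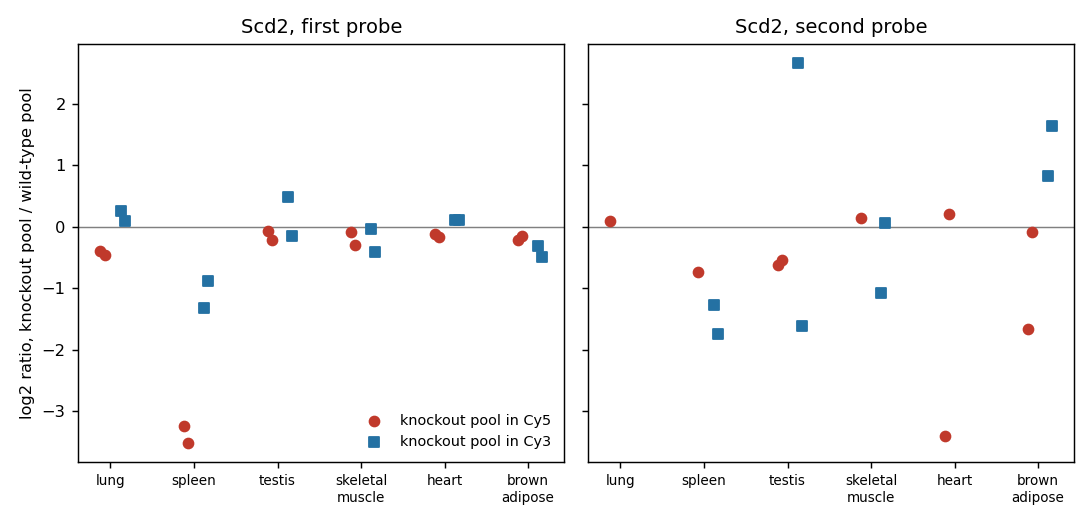
Log2 ratio of knockout over wild-type pool (y axis) for the 2 Scd2 probes (panels) on each array of 6 organs (x axis), with red circles for the knockout pool in Cy5 and blue squares for Cy3, leaving out the 1 value beyond 12. Both probes lie below 0 on every spleen array that measured them, and outside spleen the first stays between -0.48 and 0.48 while the second spreads from -3.40 to 2.67.

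Among the genes that supply carbon and NADPH, Acly, which makes cytosolic acetyl-CoA, stood at -0.28 and -1.18 with Cy5 and -0.55 and -0.27 with Cy3 in lung. All 4 are below 0 and the estimate was -0.57 ± 0.27. In spleen, heart and brown adipose tissue its estimates lay between -0.08 and 0.00 with SEs of 0.27, and in muscle it had 2 values only, -0.80 and -0.12. Me1, the cytosolic malic enzyme, had its estimate farthest from 0 in spleen, -0.81 ± 0.31. That value joins -1.95 and -1.86 with the knockout pool in Cy5 to 0.32 and 0.26 with it in Cy3, so the sign followed the dye orientation. The 2 Me1 probes also differed there, with means of -0.13 over 4 arrays and -2.09 over 3. In the other 5 organs Me1 estimates lay between -0.26 and -0.08.

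Acaca, the acetyl-CoA carboxylase that commits carbon to fatty acid synthesis, was lowest in skeletal muscle, at -1.66 and -0.75 with Cy5 and -0.57 with Cy3. All 3 are below 0 and the estimate was -0.96 ± 0.34. The median of all probes on muscle replicates 1 and 2, which gave the Cy5 values, was -0.44 and -0.78, and on replicate 3 it was -0.01. In heart the 4 Acaca values ran from -0.02 to 0.08, and in spleen it was measured only with Cy3, at -0.23 and 0.73.

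The elongases differed from each other. Elovl6, which extends palmitate to stearate, was below 0 on all 4 lung arrays, at -0.54 and -0.40 with Cy5 and -0.64 and -0.47 with Cy3 (estimate -0.51 ± 0.32). This close agreement is that of an average over up to 4 probes, whose own lung means were -2.53, -0.26, -0.27 and 1.52. The Elovl6 probe with the least spread there had lung ratios from -0.77 to 0.34. Elovl5, which extends polyunsaturated fatty acids, stood at -0.07 and -0.17 with Cy5 and -0.59 and -0.70 with Cy3 in lung. Its heart ratios were 0.44 and 0.85 with Cy5 against -0.52 and -0.21 with Cy3. Its brown adipose ratios were 0.65 and 0.35 with Cy5 against -0.56 and -0.29 with Cy3, so in both organs the sign turned with the dyes and the estimates were 0.14 ± 0.26 and 0.04 ± 0.26. Without heart replicate 2 the heart estimate of Elovl5 was -0.02, that of Scd2 -0.01 and that of Thrsp -0.16.

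The genes of triglyceride assembly gave the least certain values. Gpam, which attaches the first acyl chain to glycerol 3-phosphate, was the only member with a median above 0 over its arrays (0.39 over 17), and its ratios ran from -3.73 in muscle to 1.97 in lung. In lung it stood at 0.14 and 0.18 with Cy5 and 1.97 with Cy3, and in spleen at -1.13 with Cy5 and -1.84 with Cy3, too few arrays for an estimate. Dgat2, which adds the last acyl chain, ranged from -3.65 to 2.86 within spleen alone, with an estimate of -0.38 ± 0.80. Its SEs lay between 0.80 and 0.93 and those of Gpam between 0.68 and 0.79, against 0.22 to 0.26 for Thrsp.

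**Figure D3:**
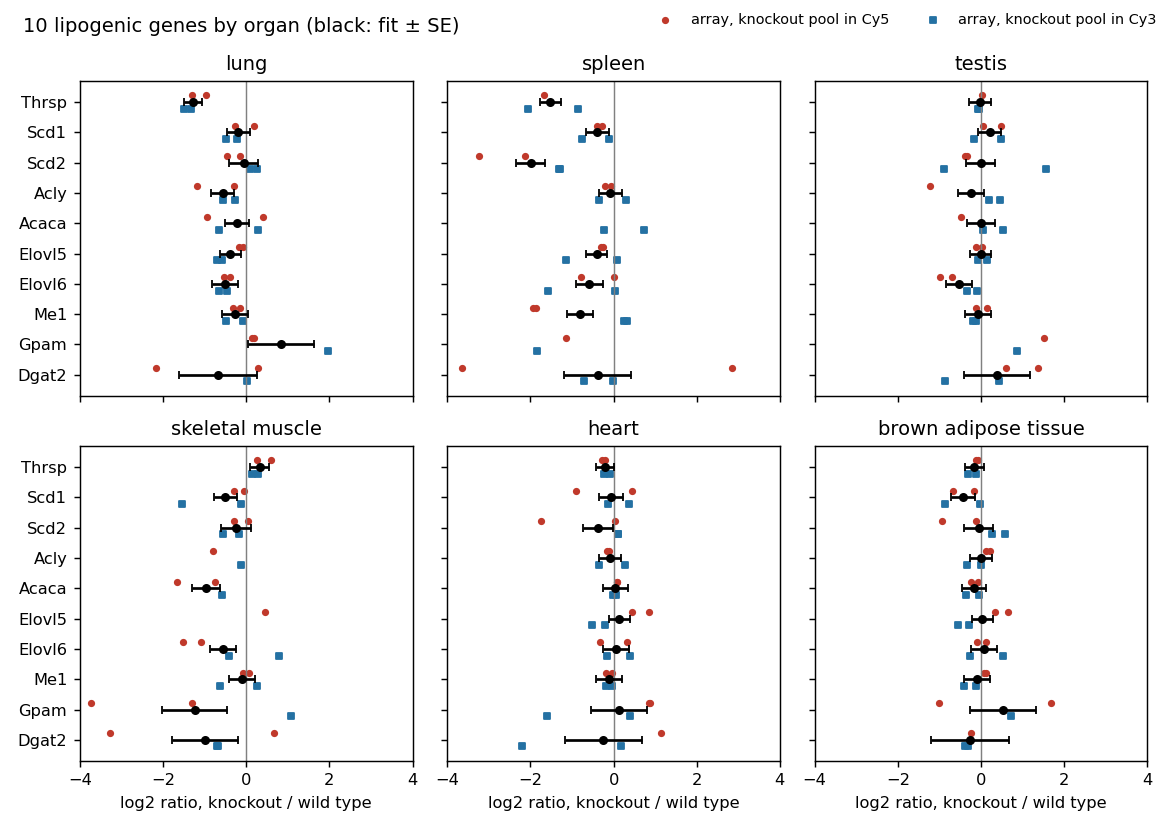
Log2 ratio of knockout over wild type (x axis) for the 10 genes (y axis) in each of 6 organs (panels), with red circles for single arrays with the knockout pool in Cy5, blue squares for Cy3, and black points with bars for the fitted estimate ± SE where one was made. The estimates of Thrsp in lung and of Thrsp and Scd2 in spleen are the lowest drawn, and Gpam and Dgat2 have the widest bars.

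Across the set, 9 of 10 organ estimates were below 0 in lung and 8 of 8 in spleen, with medians of -0.32 and -0.49. The medians over all rows tested were -0.01 in lung and -0.07 in spleen, and 51.2% and 54.5% of those rows were below 0. In skeletal muscle 7 of 8 members were below 0 (median -0.53, against -0.16 over all rows, of which 58.2% were below 0). In testis 7 of 9, in heart 6 of 10 and in brown adipose tissue 6 of 10 were below 0, where 47.3%, 52.2% and 61.1% of all rows were. The members' medians in these organs were -0.01, -0.07 and -0.07, and those of all rows 0.02, -0.02 and -0.07. With the values read as Cy5 over Cy3, 5 of 10 members were below 0 in lung (46.4% of rows) and 4 of 8 in spleen (56.8%), with medians of -0.01 and 0.02. Of the members with 4 arrays, 5 of 8 were below 0 on all of them in lung, where 7.58% of complete rows were, and 2 of 7 were in spleen (11%), 1 of 6 in testis (6.31%), 1 of 6 in skeletal muscle (11.4%, with Thrsp above 0 on all 4, as 8.73% of rows were), 2 of 9 in heart (8.09%) and 3 of 8 in brown adipose tissue (9.88%). The members were drawn from this contrast, so these counts describe the choice.

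Of 58 combinations of member and organ with both dye orientations, 21 had means of opposite sign in them. Read as Cy5 over Cy3 the count is 37, which the 21 fixes, since turning the sign exchanges alike and opposite pairs. The 21 included 1 of 9 in spleen and 2 of 10 in lung, against 48.6% and 52.1% of all rows, and 7 of 10 in testis, against 51.4% of rows. Genes drawn for ratios away from 0 are less open to opposite signs, so these counts are a description. Thrsp had opposite signs in 1 of 6 organs, testis, where both means were under 0.07 in size. In lung its means were -1.14 with the knockout pool in Cy5 and -1.41 with it in Cy3, and in spleen -1.67 and -1.47. Elovl5 had opposite signs in 3 of 5 organs and Scd2 in 4 of 6. The dye term of the fit (coded 1 with the knockout pool in Cy5 and -1 with it in Cy3) passed for 0 of 9 members tested, where 0.431% of 11833 rows passed (limma, adjusted p under 0.05). At an unadjusted p under 0.05 there were 2 of 9 members, where 13% of rows were, namely Scd2 at -0.35 ± 0.14 and Elovl5 at 0.26 ± 0.11 (limma, adjusted p of 0.298 and 0.338). The Thrsp term was 0.04 ± 0.10 (limma, adjusted p = 0.887).

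**Figure D4:**
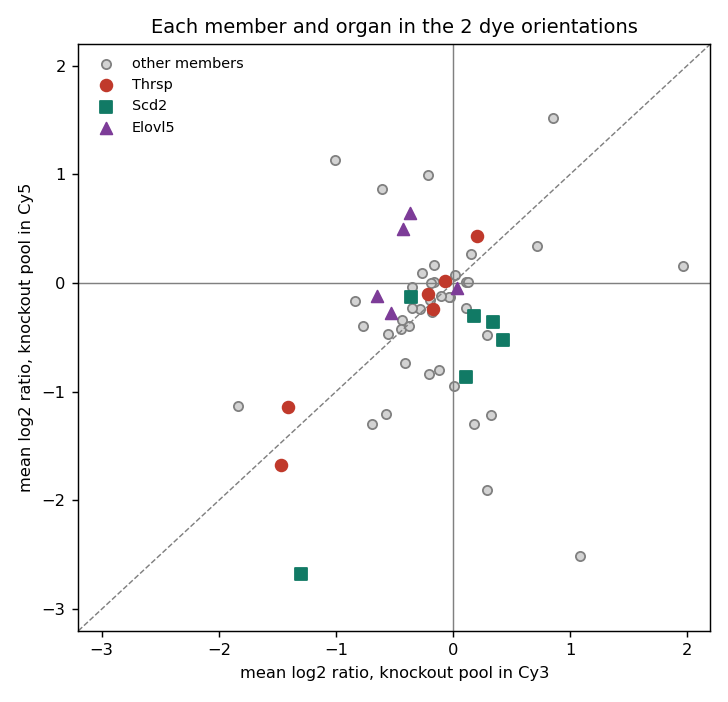
Mean log2 ratio of knockout over wild type with the knockout pool in Cy5 (y axis) against the mean with it in Cy3 (x axis), 1 point for each member and organ with both, and a dashed line where the 2 are equal. The lung and spleen points of Thrsp (red circles) lie near the line at about -1.14 to -1.67, Scd2 (green squares) lies below the line in 5 of 6 organs, and the heart and brown adipose points of Elovl5 (purple triangles) lie above 0 on the y axis and below 0 on the x axis.

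The members were little alike over single arrays. With each array centred on its median, the 45 pairs of members had a median Pearson r of 0.03, and 25 of them were above 0. The highest were 0.59 for Scd2 with Me1 (24 arrays), 0.50 for Thrsp with Elovl5 (19 arrays) and 0.46 for Thrsp with Me1 (22 arrays), and the lowest was -0.50 for Scd1 with Gpam (17 arrays). Over the means of the 6 organs the median r was 0.15, with 0.97 for Thrsp with Elovl5, 0.95 for Thrsp with Me1 and 0.93 for Scd2 with Me1, and the lowest was -0.84 for Acaca with Elovl5. These rest on 6 points each, and the muscle point of Elovl5 is 1 array. Arrays of 1 organ share their RNA pools and array noise, so these values are descriptions. Among 3095 named genes with a value on all 22 arrays of Thrsp, the patterns most like it were those of Slc31a1, a copper transporter (r = 0.84), Apoe, an apolipoprotein (0.80), Vapb, a membrane contact protein (0.79), Tnni2, fast troponin I (0.78), and Tmem214 (0.76). The least like were Tes (-0.79), Slc1a4, a neutral amino acid transporter (-0.74), Btbd10 (-0.69), Galnt10 (-0.68) and Plaat5 (-0.65). The median r over these genes was 0.11, and 19 exceeded 0.7.

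Of the other genes of the same pathways, 1 passed the test, in spleen. Of 62 listed genes, 44 were on the arrays: 17 of 25 for fatty acid synthesis, elongation and desaturation, 3 of 5 for NADPH supply, 14 of 15 for triglyceride assembly and 10 of 17 for regulators of lipogenesis. In spleen, where 1.53% of rows passed, 1 of 37 tested genes rose and none fell. It was Hsd17b12, the ketoacyl reductase of the elongation cycle, at 2.06 ± 0.43 (limma, adjusted p = 0.0216), a level 4.18-fold higher, above 0 on 4 of 4 arrays from 0.51 to 3.17. It did not pass with array weights (limma, adjusted p = 0.107), with spleen fitted alone (0.87), after centring and scaling (0.414) or without replicate 1 (0.124), 2 (0.0642) or 3 (0.195) of the organs. In lung 0 of 36 passed (where 0.0809% of rows did) and in skeletal muscle 0 of 33 (where 5.58% of rows did). In testis 0 of 41 passed, in heart 0 of 36 and in brown adipose tissue 0 of 43 (limma). In each of these last organs 0% of all rows passed. At an unadjusted p under 0.05 there were 6 in lung (6.62% of all rows were), 9 in skeletal muscle (20.2%), 4 in testis (3.62%), 2 in heart (2.05%), 1 in brown adipose tissue (0.67%) and 10 in spleen (15.4%). The list medians in lung, where the members' median was -0.32, were -0.07 for fatty acid synthesis, 0.04 for NADPH supply, 0.00 for triglyceride assembly and -0.30 for the regulators. In spleen they were 0.45, 0.30, -0.20 and -0.06.

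Markers of other cell types were also followed in lung and spleen. In spleen 9 of 11 measured exocrine pancreas genes fell (0.936% of rows fell), with list medians of -4.70, -5.38, -3.96 and -4.65 on the 4 arrays. The list ran from the elastase Cela2a at -6.68 to the carboxypeptidase Cpb1 at 1.89 (limma, adjusted p = 0.13), and in lung 0 of 10 passed (3 at an unadjusted p under 0.05). In lung 3 of 14 skeletal muscle genes fell (0.0728% of rows fell), the fast troponins Tnnc2 (-3.46) and Tnni2 (-1.99) and the sarcomere gene Myoz1 (-1.96). Of the 14, 11 were below 0 (51.2% of rows were). At an unadjusted p under 0.05 there were 10 in either direction (limma, 6.62% of rows were). The lung list medians were -1.56, -1.81, -0.81 and -1.50 on the 4 arrays, and the myosin light chain gene Mylpf lay the other way at 2.19 (limma, adjusted p = 0.211). In spleen 1 of 10 of these genes fell, Tnni2 at -1.78, and the list median was 0.09. Of the white adipocyte genes 0 of 6 in lung and 0 of 7 in spleen passed (limma, with 1 and 0 at an unadjusted p under 0.05). Their estimates ran from -0.45 for the fatty acid binding protein Fabp4 to 2.29 for the lipase Lipe in lung (median 0.30), and from -0.95 for Cidec to 1.34 for the lipase Pnpla2 in spleen (median 0.17). On single arrays the medians ran from -0.68 to 1.004 in lung and from -1.11 to 1.43 in spleen. Of the brown adipocyte genes, 0 of 6 passed in lung (1 at an unadjusted p under 0.05), from Ucp1, the uncoupling protein of brown fat, at -0.72 (limma, adjusted p = 0.735) to Prdm16 at 0.88. Of these 6, 5 were below 0 in lung (51.2% of rows were), with a list median of -0.34. The list medians on the 4 lung arrays were -0.41, -0.17, -0.56 and -0.44. In spleen 3 of 5 were below 0 (54.5% of rows were), with a list median of -0.29 and array medians from -0.38 to 0.89. Of these 5, 1 rose, the lipid droplet gene Cidea at 1.56 (limma, adjusted p = 0.0499), where 0.597% of rows rose. Without 1 replicate it ranged from 0.95 (without replicate 1) to 2.19 (without replicate 2), and it passed in 1 of these 4 fits and not with arrays centred, array weights or the replicate block. Read as Cy5 over Cy3 it was 0.20. The marker calls rest on a spread shared over all organs. With lung or spleen fitted alone, 0 rows passed in either, these markers included. Without 1 replicate, 3 to 7 of all rows passed in lung and 50 to 159 in spleen. The part of these cell types in the Thrsp and Scd2 ratios was not tested.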

How the data were processed

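Organs of Nur77 knockout and wild-type mice were compared on 24 two-colour arrays, 4 per organ. The deposited values are log2 ratios, 1 per probe and array, in the authors' value table. For the log base, direction, centring, background correction and software, nothing is stated in the labels. Base 2 is an assumption. Of 392774 values, 1.24% were 15.7 or larger in size, with none between 9.94 and 15.7, and were treated as missing. Each labelling reaction used 20 µg of total RNA.

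Probes were named from the platform annotation (13891 with 1 symbol, 5 with several, 6309 with none), checked against RefSeq (GRCm38.p6), and averaged per symbol, giving 16148 rows. limma 3.58.1 in R 4.3.3 (lmFit, eBayes) fitted 6 organ coefficients and 1 dye term over all 24 arrays. The fit takes the spread of a row as equal in all organs. The median SD over rows ran from 0.47 in brown adipose tissue to 1.19 in skeletal muscle. A row was tested in an organ with at most 1 missing array and both dye orientations present, with Benjamini-Hochberg adjustment over all rows of that organ at 0.05, and for the dye term with values on at least 18 arrays. The procedure was tested on simulated data. Their noise had an equal spread in all organs for each row, so this could not check that assumption of the fit. The 4 arrays of an organ repeat 1 comparison of 2 pools, so p-values measure hybridisation error and not the spread between animals, and the number of arrays limits the precision.

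The members, lists, motifs and tests were chosen with earlier results of these data known. Genes of the pathway lists are named where they passed in an organ, and the 5 most and 5 least like Thrsp are named by Pearson r. Marker genes named without having passed were picked after their values were seen. Tools further included Python 3.11.15.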

Additional observations from a re-analysis of the deposited data

Results flagged for a closer look

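Thrsp was above 0 on every measured array of skeletal muscle (mean 0.32) and below 0 on every measured array of lung (-1.28), spleen (-1.54), heart (-0.20) and brown adipose tissue (-0.16). The difference between these organs was not tested, since the gene was chosen for its ratios. In 44 sets of 4 arrays, 2 held a value far from the other 3, and chance alone flags about 1 in 20. Scd1 in skeletal muscle was at -1.54 on replicate 4, with the other arrays between -0.29 and -0.05. The median of that array was 0.67, and relative to it the Scd1 value was lower still, at -2.215. Scd2 in heart was at -1.76 on replicate 2, with the others between 0.03 and 0.11. That array is the one whose wild-type channel is labelled skeleton muscle, and its 2 Scd2 probes read -0.11 and -3.40.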

How the results depend on the processing

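Several alternatives could not change the Thrsp estimate in lung, skeletal muscle, heart or brown adipose tissue, so its sign under them tells nothing. Thrsp has 1 probe, no very large value and, in these organs, 4 arrays balanced over the dyes. These alternatives were very large values kept, no dye term, a dye term per organ and each organ fitted alone. The others were 1 probe per gene, complete rows only, no filter on missing values and the replicate block. In lung all gave -1.28, with SEs from 0.20 to 0.24. Under the alternatives run, the Thrsp ratios in heart and skeletal muscle never changed sign. Those in lung, spleen and brown adipose tissue did so only where the values were read as Cy5 over Cy3. Turning the sign on the Cy3 arrays in that way gave 0.14 in lung, 0.27 in spleen, -0.10 in testis, 0.11 in skeletal muscle, -0.035 in heart and 0.056 in brown adipose tissue. It also turned Cela2a (0.26), Ctrl (0.064) and Ctrb1 (0.13) in spleen and Tnni2 (0.16) in lung. After centring and scaling Thrsp in heart was -0.30, and in testis it was 0.00 with arrays centred. Without each replicate in turn it ranged from -1.37 to -1.23 in lung, -1.87 to -1.27 in spleen, -0.03 to -0.01 in testis, 0.24 to 0.38 in skeletal muscle, -0.27 to -0.15 in heart and -0.20 to -0.10 in brown adipose tissue. The replicate numbers were not taken to pair the arrays. Correlations of deviations between same-numbered arrays of different organs had a median of 0.04 (from -0.01 to 0.18). For arrays of another number with the same dye orientation the median was 0.05 (from -0.06 to 0.22). Of 24 arrays, 11 correlated best with their own number, a count for which no chance level was worked out. With the replicate block Thrsp was -1.28 in lung and -1.54 in spleen, and the pathway genes called were 1 in spleen and 0 elsewhere, as without it.

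The 1 pathway gene called in spleen became 0 after centring and scaling, with array weights, with spleen fitted alone, read as Cy5 over Cy3, and 0 to 1 when a replicate was left out, and 2 with 1 probe per gene or no filter on missing values. The 0 in skeletal muscle became 1 with a dye term per organ or with 1 probe per gene, 2 read as Cy5 over Cy3, and 0 to 2 when a replicate was left out. No member had a dye term past the test under any alternative run. Over all alternatives the rows called ranged from 0 to 29 in lung (10 in the analysis reported), 0 to 320 in spleen (172), 0 to 903 in skeletal muscle (668), 0 to 9 in testis, 0 to 41 in heart and 0 to 6 in brown adipose tissue (0 in each). Leaving out muscle replicates 2 and 4 was chosen after seeing the data. The causes of these changes were not tested. Intensities were not analysed here, so signal over background is unknown.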
